A study of Mus musculus with 16 samples.

Results

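The clustered protocadherins are 57 protein-coding genes in a row on mouse chromosome 18, of 21887 protein-coding genes in the annotation used. They were taken by name from RefSeq (assembly GRCm38.p6, the build mm10 of the deposited tables) as every protein-coding gene on that chromosome whose symbol begins with Pcdha, Pcdhb or Pcdhg followed by a, b, c or a number. The alpha cluster has 14 members, the beta cluster 22 and the gamma cluster 21, of which 12 are A-type, 6 are B-type and 3 are C-type. With Pcdhac1 and Pcdhac2 of the alpha cluster, there are 5 C-type genes in all. The rule uses names alone and no measured value, but the set was chosen with earlier results of these data known. Pcdhgb8 is annotated as a pseudogene and was not a member, nor were the readthrough genes Gm37013, Gm38666 and Gm38667, which span parts of the same region.

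The study mapped sites of action of Dnmt1, the methyltransferase that copies DNA methylation after replication. All 16 libraries were made from E14TG2a cells, a mouse embryonic stem cell line, given 1 mM Ado-6-azide, an azide-bearing cofactor analogue, by electroporation, and from DNA taken 3 h later. In 11 libraries the cells carried 1 wild-type Dnmt1 allele and 1 Dnmt1 N1580A allele, a substitution made so that the enzyme can use the analogue. Of these, 3 libraries are labelled only as the heterozygous knock-in (called Het below), and pairs of libraries come from day 0, from day 2, from day 4 and from day 8 of a shift from the naive to the primed state. Day 0 is the naive state, held with leukaemia inhibitory factor at 1000 U/mL and the kinase inhibitors CHIR99021 at 3 µM and PD0325901 at 1 µM, and priming is growth with the factor but without both inhibitors. The other 5 libraries came from cells with wild-type Dnmt1, 3 labelled as wild type and 2 as wild-type control, and all 5 received the analogue too. The labels give 1 cell line and do not name the clone, and they do not say in which of the culture states the Het and wild-type cells were taken. Nor do they say whether replicates were grown apart, and p-values thus measure only the spread between these libraries, which may be technical.

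Protocadherins are cell adhesion proteins of the cadherin superfamily, and the clustered ones are best known from neurons, where each cell displays its own combination of isoforms and like combinations recognise each other. In the alpha and gamma clusters each gene has a large variable first exon with its own promoter, which encodes the extracellular part, and all genes of a cluster splice to the same constant exons at the 3′ end, which encode the shared cytoplasmic tail. Beta genes are single-exon genes with no shared part. Promoter choice in these clusters is known to involve the looping factor CTCF, cohesin and DNA methylation, and the C-type genes at the ends of the alpha and gamma clusters are known to be regulated apart from the others.

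The unit used here is the listed position, a genomic position with at least 1 read in a library, which marks labelling near it. The 8 libraries of the day series listed between 390158 and 3065096 positions and the 3 Het libraries between 1641850 and 3423423, from 4202118 to 25175264 reads per knock-in library. The number of positions rose with the day, from 390158 and 407127 on day 0 to 3065096 and 2602884 on day 8. Counts of clusters and their parts are therefore given beside their share of the positions listed in the library, in ppm (per 1000000 positions). Single genes are given as counts by library, which carry these differences in totals, and as density per length. The 5 wild-type libraries listed 960 to 9150 positions each. No molecular identifiers were counted, so intervals cover counting error only.

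The alpha cluster spans bases 36930285 to 37188897 of chromosome 18 (258.6 kb), the beta cluster 37264998 to 37521419 (256.4 kb) and the gamma cluster 37661775 to 37841873 (180.1 kb). The annotation at hand gave gene ends but no exons. The variable exon of an alpha or gamma gene was therefore taken as the first 2500 bases from the gene start, 35.0 kb over the 14 alpha genes and 52.5 kb over the 21 gamma genes. For the beta genes the whole bodies, 75.6 kb in all, were used. The shared 3′ part is the stretch from the end of the last variable window to the end of the cluster, bases 37146178 to 37188897 for alpha (42.7 kb) and 37822046 to 37841873 for gamma (19.8 kb). It holds the constant exons and all other sequence of that stretch, which could not be divided into exons and introns. In the gamma cluster it also holds the long noncoding RNA gene Gm29994.

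The beta and gamma clusters took a larger share of all labelled positions on day 8 of priming than in naive cells. In the edgeR fit described below, which also rescales the libraries, their changes were 2.57-fold and 1.76-fold, and that of the alpha cluster did not pass. The beta cluster held 12 and 11 positions in the day 0 libraries, 56 and 75 on day 2, 149 and 189 on day 4, 213 and 226 on day 8, and 167, 312 and 224 in the Het libraries. As a share this was 28.9 ± 2.64 ppm (SD, n = 2) on day 0, 50.8 ± 9.30 on day 2, 72.3 ± 1.53 on day 4, 78.2 ± 12.3 on day 8 and 92.6 ± 8.54 (n = 3) in Het cells. Both day 0 shares lay below all 9 other knock-in libraries, and the ranges of day 4 and day 8 overlapped.

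The gamma cluster held 26 and 27 positions on day 0, 109 and 117 on day 2, 250 and 303 on day 4, 380 and 314 on day 8, and 200, 421 and 368 in Het libraries. Its share was 66.5 ± 0.227 ppm on day 0, 87.7 ± 2.44 on day 2, 119 ± 1.30 on day 4, 122 ± 2.36 on day 8 and 128 ± 9.80 in Het cells. The day 0, day 2 and day 4 ranges did not overlap, and the Het range overlapped that of day 8.

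The alpha cluster held 42 and 26 positions on day 0, 99 and 85 on day 2, 176 and 220 on day 4, 287 and 238 on day 8, and 194, 401 and 247 in Het libraries, a share of 85.8 ± 31.0, 71.6 ± 9.29, 84.7 ± 0.918, 92.5 ± 1.55 and 110 ± 13.9 ppm in that order. The replicates of day 0 lay on either side of all day 2, day 4 and day 8 libraries.

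**Figure D1:**
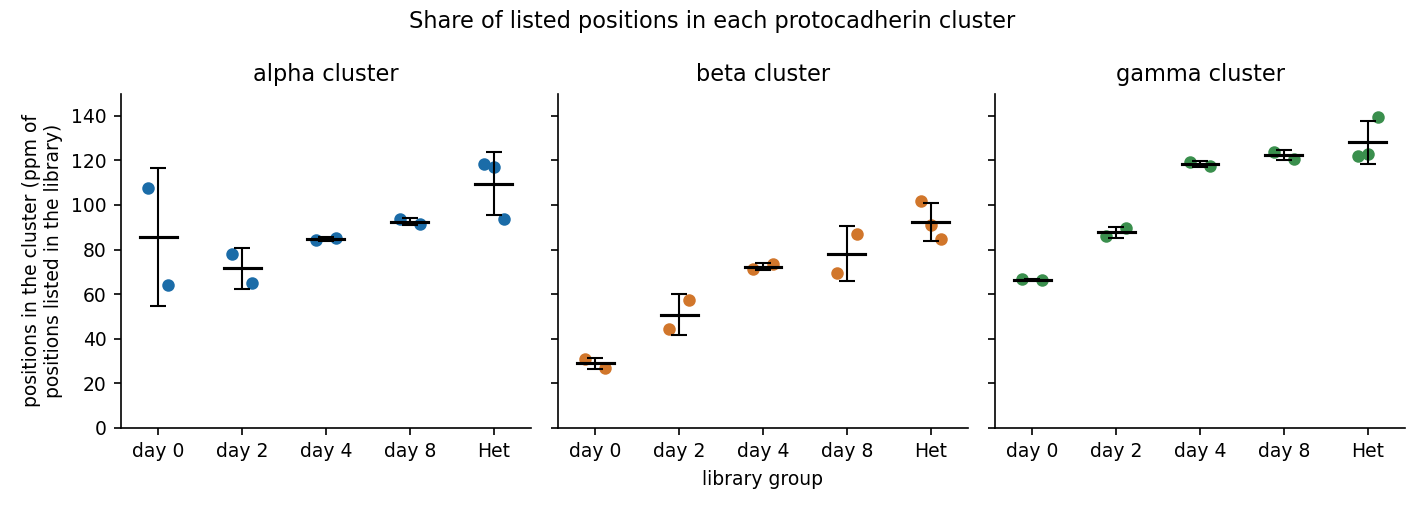
Positions in each cluster in ppm of the positions listed in the library (vertical axis), by library group (horizontal axis). Points are libraries, horizontal bars are means and error bars are SD (n = 2 per day, n = 3 for Het). The beta and gamma points rise from day 0 to day 4, while the day 0 alpha points lie far apart.

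Tests were made by fitting the clusters and their parts with all other gene bodies in edgeR's quasi-likelihood model over the 8 day libraries, with Benjamini-Hochberg adjustment over all 20387 rows tested. Between day 8 and day 0 the log2 change of the beta cluster was 1.36 ± 0.26 (SE) with an edgeR adjusted p of 6.395e-05, that of the gamma cluster was 0.82 ± 0.19 (adjusted p = 0.00142), and that of the alpha cluster was 0.06 ± 0.18 (adjusted p = 0.913). Of all rows, 4.82% passed in either direction and 2.17% as higher on day 8. Among the 1910 rows with at least as many positions as the beta cluster, 6.91% were called higher. In these rows the median log2 change was -0.08, and the fitted change lay below that of the beta cluster in 99.7%, below that of the gamma cluster in 97.7% and below that of the alpha cluster in 64.6%.

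The gamma call needed both day 0 libraries. Without day 0 replicate 1 the gamma log2 change was 0.85 (edgeR adjusted p = 0.0645) and without replicate 2 it was 0.86 (adjusted p = 0.0836), and on reads in place of positions it was 0.69 (adjusted p = 0.104). The beta cluster was called without any 1 library, with a highest adjusted p of 0.0433, and on reads (1.26, adjusted p = 0.0237). With every library thinned to 4202118 reads before positions were counted, the beta change was 1.30 (adjusted p = 0.000561) and the gamma change 0.83 (adjusted p = 0.00218).

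Both clusters were already higher on day 4. Against day 0 the beta log2 change was 1.25 ± 0.27 (edgeR adjusted p = 0.000615) and the gamma change 0.76 ± 0.19 (adjusted p = 0.00559), where 4.26% of all rows passed in either direction and 1.78% as higher, and 5.65% of the rows at least as abundant as beta as higher. On day 2 the changes were 0.78 ± 0.30 for beta (adjusted p = 0.212) and 0.37 ± 0.21 for gamma (adjusted p = 0.474) and neither passed, where 1.16% of rows were called in either direction and 0.471% as higher. The comparisons with day 0 share its 2 libraries and are not independent. Without day 0 replicate 2 the beta change on day 4 was 1.21 and missed the threshold (adjusted p = 0.0901), and the gamma change missed it without either day 0 library (0.79 without replicate 1, adjusted p = 0.106, and 0.80 without replicate 2, adjusted p = 0.135).

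Between day 2 and day 8, a comparison without the naive libraries, 3 of the clusters and summed parts rose. The beta cluster rose by a log2 change of 0.58 ± 0.14 (edgeR adjusted p = 0.0303), the gamma cluster by 0.45 ± 0.11 (adjusted p = 0.0303) and the alpha variable exons by 0.91 ± 0.21 (adjusted p = 0.0218), where 0.147% of all rows were called in either direction and 0.0736% (15 of 20387) as higher, and 0.314% of the rows at least as abundant as beta as higher. All 3 calls were lost on reads, with DESeq2 (adjusted p = 0.9997 for each, with log2 changes of 0.59, 0.45 and 0.92) and after thinning (adjusted p = 0.0872, 0.124 and 0.262). Calls were also lost without 1 library. The beta call was lost without day 2 replicate 1 (0.40), day 2 replicate 2 (0.77) or day 8 replicate 2 (0.41), the gamma call without any 1 of the day 2, day 4 and day 8 libraries (0.42 to 0.47), and that of the alpha variable exons without any 1 of the day 2 or day 8 libraries (0.85 to 0.96).

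The share of positions was also set against the day over the 8 libraries, with exact permutation tests adjusted over 7 clusters and parts. Pearson's r was 0.902 for the gamma cluster (exact p = 0.00278, adjusted p = 0.0139) with a Spearman rho of 0.976 (exact p = 0.000794, adjusted p = 0.00556). For the beta cluster r was 0.881 (exact p = 0.00556, adjusted p = 0.0139), with a rho of 0.878 (exact p = 0.0103, adjusted p = 0.0241). For the alpha cluster r was 0.316 (exact p = 0.447, adjusted p = 0.522), with a rho of 0.390 (exact p = 0.361, adjusted p = 0.506). Without the 2 day 8 libraries, whose day is farthest from the median, the gamma r was 0.993, that of beta 0.975 and that of alpha -0.0284. With 6 libraries the exact p was 0.0222 for both gamma and beta, the smallest that this test can give. The adjusted p of 0.0519 did not pass, and with so few libraries it cannot show that the relation was lost. The total of listed positions also rose with the day, and its part in these relations was not tested. The thinned libraries were made equal in reads and not in listed positions. In them r was 0.905 for gamma and 0.883 for beta. Without day 0 replicate 2 the beta r was 0.852 (exact adjusted p = 0.0556), and without day 0 replicate 1 the alpha r was 0.910 (exact adjusted p = 0.0185).

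The clusters were compared with each other within each library by the log2 ratio of their positions, which the library total does not enter. The gamma to alpha ratio averaged -0.31 ± 0.52 (SD, n = 2) on day 0, followed by 0.30 ± 0.23 (day 2), 0.48 ± 0.03 (day 4) and 0.40 ± 0.0037 (day 8). Over the days its r was 0.613 (exact p = 0.0897, adjusted p = 0.120 over 4 ratios; rho = 0.586, exact p = 0.153, adjusted p = 0.204). The gamma to beta ratio averaged 1.17 ± 0.12 on day 0 and 0.65 ± 0.25 on day 8, with r = -0.706 (exact p = 0.0520, adjusted p = 0.104; rho = -0.683, exact p = 0.0825, adjusted p = 0.165). The beta to alpha ratio, added after the data had been seen, averaged -1.48 ± 0.40 on day 0 and -0.25 ± 0.25 on day 8, with r = 0.706 (exact p = 0.0540, adjusted p = 0.0899 over 5 ratios; rho = 0.683, exact p = 0.0825, adjusted p = 0.138). None of the 3 ratios between clusters passed. The gamma to beta ratio passed without day 8 replicate 1 (r = -0.863, exact adjusted p = 0.0381) and, by rho, on reads (-0.830, exact adjusted p = 0.0397, with r = -0.721 and adjusted p = 0.0587).

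Within the clusters, label was denser in the variable exons than in the cluster as a whole in 11 of 11 knock-in libraries for beta and gamma and in 10 of 11 for alpha. The exception was day 0 replicate 2, with 2 of 26 alpha positions in the windows, or 0.140 ppm per kb against 0.247 for the cluster. The windows of the alpha genes make up 13.5% of the cluster's bases and held 39.1% of its positions over the 11 knock-in libraries. Those of the gamma genes make up 29.2% of the bases and held 51.8% of the positions, and the bodies of the beta genes 29.5% of the bases and 69.3% of the positions. By group, the alpha windows held 22.1% of the cluster's positions on day 0, 41.1% on day 8 and 45.1% in Het cells, the gamma windows 39.6%, 52.4% and 54.1%, and the beta bodies 69.6%, 72.0% and 67.3%. Per length, the alpha variable exons held 0.929 ± 0.424 ppm per kb (SD, n = 11), the gamma variable exons 1.02 ± 0.330 and the beta bodies 0.617 ± 0.216. The beta value is for whole bodies, and in the first 2500 bases of the beta genes it was 0.779 ± 0.267. The shared 3′ parts held 0.378 ± 0.0683 in alpha and 0.488 ± 0.196 in gamma. Set beside the bodies of 19247 protein-coding genes of at least 2000 bases, whose median was 0.560, the gamma variable exons stood at percentile 89.8 and the alpha variable exons at 84.7. The beta bodies stood at 56.1. The alpha and gamma windows cover only the start of each gene and are thus not a like measure to whole bodies. All densities given here are per length, and the sites that Dnmt1 could act on in each stretch were not counted. The shared 3′ parts stood at 41.9 for gamma and 31.0 for alpha. Whole clusters were at 53.5 for gamma, 28.0 for alpha and 19.6 for beta.

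The gamma variable exons rose during priming. They held 9 and 12 positions on day 0, 62 and 47 on day 2, 123 and 152 on day 4, 213 and 151 on day 8, and 104, 226 and 205 in Het libraries. Its share was 26.3 ± 4.53 ppm on day 0, 42.4 ± 9.18 on day 2, 58.9 ± 0.161 on day 4, 63.8 ± 8.12 on day 8 and 69.0 ± 7.59 in Het cells. The day 0 values lay below all others, and the day 4 values lay inside the range of day 8. The log2 change was 1.22 ± 0.28 between day 8 and day 0 (edgeR adjusted p = 0.00155, 2.33-fold) and 1.08 ± 0.29 between day 4 and day 0 (adjusted p = 0.0106). Without day 0 replicate 1 or 2 the day 8 change was 1.09 (adjusted p = 0.125) or 1.46 (adjusted p = 0.0504), and the day 4 change 0.95 (adjusted p = 0.236) or 1.32 (adjusted p = 0.111). On reads the day 8 change was 1.17 (adjusted p = 0.0579). Across the days r was 0.879 (exact p = 0.00595, adjusted p = 0.0139; rho = 0.878, exact p = 0.0103, adjusted p = 0.0241), and 0.954 without the day 8 libraries (exact p = 0.0222, adjusted p = 0.0519) or 0.849 without day 0 replicate 2 (exact adjusted p = 0.0556).

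The exons of the common cytoplasmic tail lie in the gamma shared 3′ part, together with other sequence. This part held few positions in its 19.8 kb, at a density not far below the median of protein-coding bodies (percentile 41.9). It held 5 and 0 positions on day 0, 8 and 13 on day 2, 16 and 29 on day 4, 36 and 26 on day 8, and 19, 38 and 37 in Het libraries. The means ran from 6.41 ± 9.06 ppm on day 0 to 10.9 ± 1.24 on day 8 and 12.2 ± 1.56 in Het cells, and the day 0 replicates lay on either side of every other library but Het replicate 3. The log2 change on day 8 was 0.73 ± 0.61 (edgeR adjusted p = 0.568). It was -0.25 without day 0 replicate 2, the library with no position there. The ratio of variable to shared positions showed no detectable relation to time (r = -0.0262, exact p = 0.954, adjusted p = 0.954; rho = 0.0488, exact p = 0.946, adjusted p = 0.946).

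In the alpha cluster the variable exons held 13 and 2 positions on day 0, 26 and 25 on day 2, 51 and 75 on day 4, 117 and 99 on day 8, and 91, 171 and 118 in Het libraries. The share was 19.1 ± 20.1 ppm on day 0, 19.8 ± 0.991 on day 2, 26.7 ± 3.35 on day 4, 38.1 ± 0.0969 on day 8 and 50.0 ± 5.37 in Het cells. The 2 day 0 libraries stood apart, and the first of them lay above all libraries of day 2 and day 4. The log2 change between day 8 and day 0 was 0.95 ± 0.34 (edgeR adjusted p = 0.0884). It was 2.91 (adjusted p = 0.00691) without day 0 replicate 1 and 0.17 (adjusted p = 0.896) without replicate 2, so that 1 library sets its size. Across the days r was 0.710 (exact p = 0.0484, adjusted p = 0.0847; rho = 0.683, exact p = 0.0825, adjusted p = 0.144), 0.345 without the day 8 libraries, and 0.962 without day 0 replicate 1 (exact adjusted p = 0.0111).

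The alpha shared 3′ part held 8 and 5 positions on day 0, 26 and 20 on day 2, 42 and 38 on day 4, 51 and 37 on day 8, and 22, 51 and 40 in Het libraries. Its share stayed between 14.5 ± 0.945 ppm in Het cells and 17.9 ± 3.69 on day 2, and all groups overlapped at least 1 other. The log2 change on day 8 was -0.13 ± 0.42 (edgeR adjusted p = 0.915), and its sign turned without day 0 replicate 1 (0.30, adjusted p = 0.872). The log2 ratio of variable to shared positions in the alpha cluster averaged -0.24 ± 1.28 on day 0, 0.16 ± 0.22 on day 2, 0.62 ± 0.49 on day 4, 1.30 ± 0.15 on day 8 and 1.77 ± 0.24 in Het cells. Over the days its r was 0.755 (exact p = 0.0270, adjusted p = 0.104; rho = 0.732, exact p = 0.0548, adjusted p = 0.165), which did not pass.

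**Figure D2:**
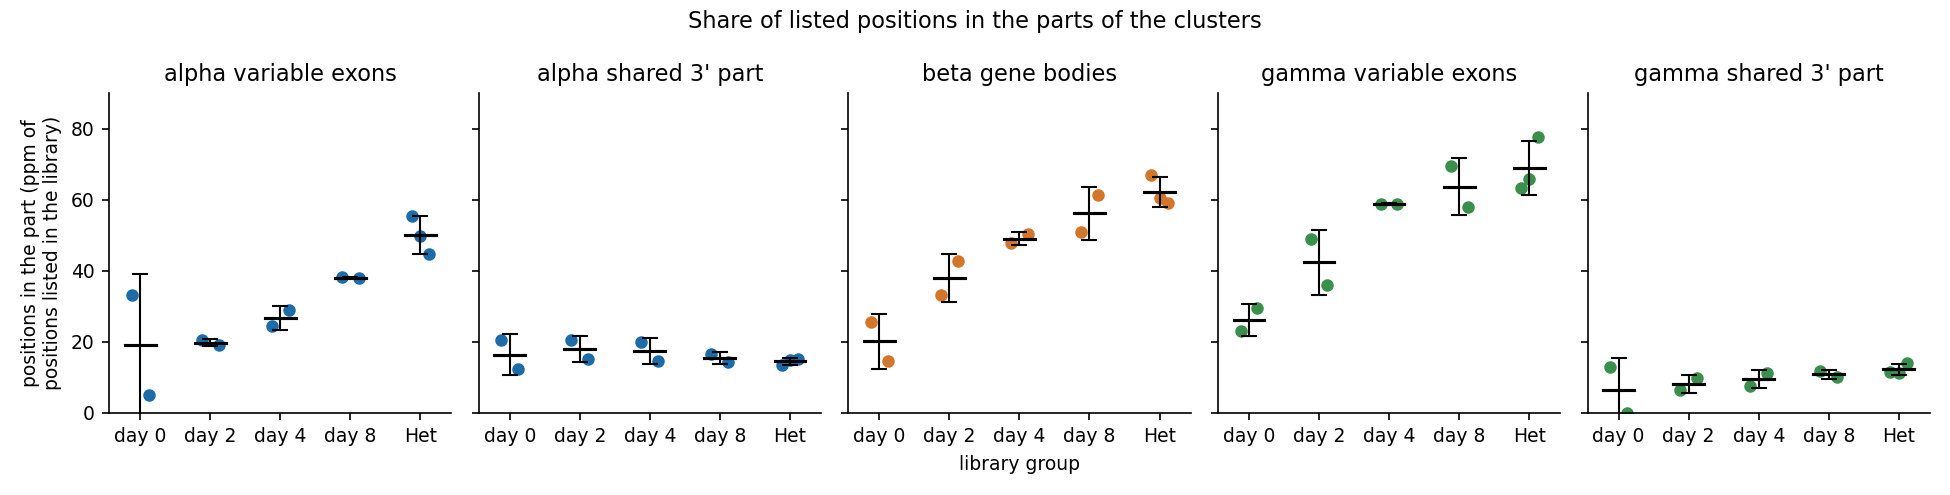
Positions in each part of the clusters in ppm of the positions listed in the library (vertical axis), by library group (horizontal axis). Points are libraries, horizontal bars are means and error bars are SD (n = 2 per day, n = 3 for Het). The gamma variable exons and beta gene bodies start lowest on day 0, while both shared 3′ parts lie below the gamma variable exons in every library.

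The label inside variable exons was set back from the gene start. Over the 11 knock-in libraries, the 1 kb before the start held 0.193 ppm per kb in alpha genes, 0.143 in beta genes and 0.224 in gamma genes, against 0.314 in 14731 other protein-coding genes. In the first 500 bases the values were 0.400, 0.426 and 0.240, against 0.333. Between 500 and 2500 bases after the start they were 1.06 ± 0.512 in alpha, 0.867 ± 0.282 in beta and 1.22 ± 0.399 in gamma (SD, n = 11), against 0.430 ± 0.0576 in the other genes. Farther upstream of the gamma genes, which lie close together, the bin from 3000 to 2500 bases before the start held 0.799 ppm per kb, and this stretch can overlap the preceding variable exon.

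The mean density of the same stretch was higher on day 8 than on day 0 in all 3 clusters, but the 2 day 0 libraries of alpha stood apart. From 500 to 2500 bases after the start, the gamma genes went from 0.566 ± 0.110 on day 0 to 1.45 ± 0.142 on day 8, the beta genes from 0.400 ± 0.0927 to 1.05 ± 0.0701 and the alpha genes from 0.593 ± 0.715 to 1.27 ± 0.0125, while the other genes went from 0.331 ± 0.0145 to 0.464 ± 0.0126. The groups did not overlap in the gamma and beta genes. To set the members against the shift in other genes, the log2 ratio of their positions to those in the first 2500 bases of the other genes was followed over the days, a comparison chosen after the data had been seen. Its r was 0.800 for the gamma variable exons (exact p = 0.0190, adjusted p = 0.0321 over 3 ratios) with a rho of 0.878 (exact p = 0.0103, adjusted p = 0.0155), and 0.783 for the beta gene bodies (exact p = 0.0214, adjusted p = 0.0321) with the same rho. For the alpha variable exons r was 0.527 (exact p = 0.181, also after adjustment) and rho 0.390 (exact p = 0.361). The mean ratios on day 8 were 1.78-fold, 2.07-fold and 2.01-fold those of day 0. Without the day 8 libraries r was 0.843 for gamma and 0.825 for beta and the exact test no longer passed (adjusted p = 0.0667 for both). Both also missed the threshold without day 0 replicate 2 (r of 0.787 and 0.810) or either day 8 library (0.742 and 0.833 for gamma, 0.835 and 0.707 for beta), and beta without day 2 replicate 1 (0.780), while alpha passed without day 0 replicate 1 (r = 0.857, exact adjusted p = 0.00476).

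**Figure D3:**
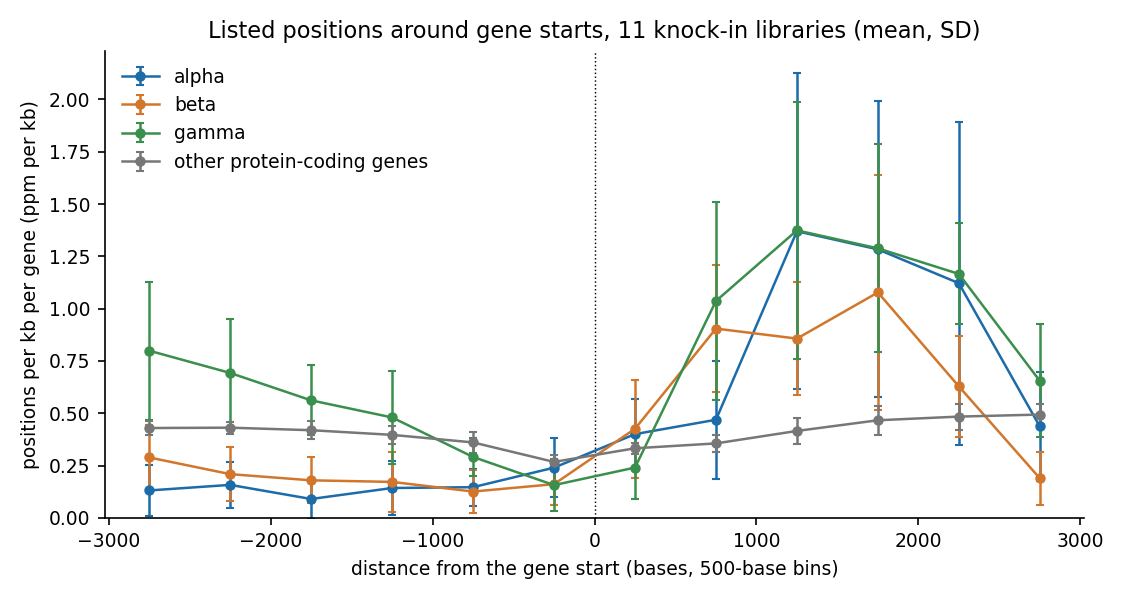
Positions per gene in ppm per kb (vertical axis) in 500-base bins by distance from the gene start in bases (horizontal axis, positive into the gene), for the alpha, beta and gamma genes and for other protein-coding genes. Points are means over the 11 knock-in libraries and error bars are SD; the protocadherin lines lie above the other genes between 500 and 2500 bases after the start and below them in the last kb before it.

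Single genes carried too few positions for the test. Of the 57 variable units and 2 shared 3′ parts, the shared parts alone passed edgeR's filter on low counts, and 0 of 59 units were called between day 8 and day 0, 0 also at an unadjusted p under 0.05. With no filter, edgeR tested all 59 and called 0, while 7 of the 59 had an unadjusted p under 0.05, all higher on day 8. Of all 33046 unfiltered rows, 13.7% had such a p, 8.89% as higher, and 1.38% were called higher. The smallest adjusted p was 0.213. On reads edgeR tested 58 units and called 0, with 23 at an unadjusted p under 0.05, all higher. Of all 30256 rows on reads, 21.6% had such a p, 15.4% as higher, 1.75% were called higher, and the median log2 change was 0.18. DESeq2 on the filtered table called 0 units, but it gave no adjusted p for the shared 3′ parts, the only units in that table. In the 3 other comparisons between days, 0 units were called either.

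The 7 were Pcdha6, Pcdhac1, Pcdhb13, Pcdhb22, Pcdhgb2, Pcdhga10 and Pcdhga11, named here after their values were seen. Each of these variable exons had no position in either day 0 library. On day 8 Pcdha6 had 15 and 5 positions, Pcdhac1 12 and 10, Pcdhb13 12 and 8, Pcdhb22 10 and 11, Pcdhgb2 11 and 6, Pcdhga10 9 and 9, and Pcdhga11 13 and 10. Naive cells gave little to count in most members. Of the 57 units, 22 had no position in both day 0 libraries, 11 of them beta, 6 alpha and 5 gamma. There were 2 such units on day 2, Pcdhac2 and Pcdhgb1, and 0 in each later group and in Het cells. The day 0 libraries listed 797285 positions together against 5667980 on day 8.

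Among the alpha genes, which differ in their extracellular domains, most positions over the 11 knock-in libraries lay in Pcdha2 (101) and Pcdha7 (90), behind the shared 3′ part with 340. Pcdha2 (gene at 36939205 to 37187661) had 1 and 0 positions on day 0, 4 and 3 on day 2, 6 and 7 on day 4, 11 and 18 on day 8, and 13, 26 and 12 in Het libraries. Pcdha7 (36973811 to 37187663) had 1 and 0, 2 and 4, 9 and 11, 12 and 8, and 14, 21 and 8 in that order. The 1 position in day 0 replicate 1 is a share of 2.56 ppm, which lay above that of 1 day 2 library for each gene (2.29 ppm for Pcdha2 and 1.58 ppm for Pcdha7). The fewest lay in Pcdha1 (32), Pcdha4 (30) and Pcdha12 (27). Pcdha12 had 0 positions in 4 of the 11 libraries, and 8 at most, in day 8 replicate 1 and Het replicate 2.

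The beta genes, the single-exon members, were led in summed positions by Pcdhb15 with 83, Pcdhb13 with 76 and Pcdhb19 with 74. Their bodies are 2340 to 5271 bases long, so that this order is not one of density: over the 9 knock-in libraries other than day 0, Pcdhb19 with 4714 bases had 0.711 ± 0.273 ppm per kb and Pcdhb1 with 2457 bases and 51 positions had 1.03 ± 0.666. Pcdhb15 (37473546 to 37476340) had 1 and 0 positions on day 0, 5 and 2 on day 2, 7 and 11 on day 4, 12 and 11 on day 8, and 8, 15 and 11 in Het libraries. Pcdhb13 (37442517 to 37446209) had 0 and 0, 2 and 4, 9 and 6, 12 and 8, and 6, 17 and 12. As shares, the day 2 and day 4 ranges overlapped in both genes, at 1.53 to 3.95 and 3.34 to 4.27 ppm for Pcdhb15 and 1.58 to 3.06 and 2.33 to 4.30 ppm for Pcdhb13. Pcdhb5 and Pcdhb21 held 29 positions each and Pcdhb8 held 19, the lowest sum of all members.

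In the gamma cluster the A-type gene Pcdhga2 held 83 positions and Pcdhga10 80, behind the shared 3′ part with 227. Pcdhga2 (37668927 to 37841870) had 1 and 0 on day 0, 5 and 3 on day 2, 11 and 10 on day 4, 12 and 9 on day 8, and 7, 13 and 12 in Het libraries. Pcdhga10 (37747016 to 37841870) had 0 and 0, 0 and 2, 15 and 8, 9 and 9, and 10, 16 and 11. Its shares on day 4, on day 8 and in Het cells were 2.94 ppm or more. In the day 0 libraries 1 position would already be a share of 2.46 or 2.56 ppm, so the 0 counts there say little about a difference. Pcdhgb6 (25) and Pcdhga1 (33) held the fewest, followed by Pcdhgb1 and Pcdhga6 with 43 each. Pcdhgb1 had 0 positions in 3 libraries, day 0 replicate 2 and both of day 2.

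The 5 C-type genes held 44 to 73 positions each. Pcdhgc5 (37819546 to 37841873) had 0 and 1 positions on day 0, 5 and 2 on day 2, 8 and 10 on day 4, 17 and 5 on day 8, and 5, 8 and 12 in Het libraries, 73 in all. Pcdhgc3 (37806410 to 37841873) had 0 and 0, 4 and 5, 6 and 11, 9 and 5, and 5, 11 and 13, 69 in all, and Pcdhgc4 (37815079 to 37841873) had 66. Pcdhac1 (37090136 to 37187657) had 56, with none on day 0. Pcdhac2 (37143678 to 37187663) had 3 and 0 positions on day 0, none on day 2, 3 and 3 on day 4, 3 and 8 on day 8, and 5, 9 and 10 in Het libraries, 44 in all. The 3 on day 0 all came from replicate 1, the library with most of the alpha positions of that day.

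Per length, the mean of each of the 5 types of genes was higher on day 8 than on day 0, with no test of types. The first 2500 bases of the 14731 other protein-coding genes also rose, from 0.335 ± 0.0228 ppm per kb on day 0 to 0.436 ± 0.0130 on day 8. The 12 alpha genes that are not C-type had 0.509 ± 0.488 ppm per kb on day 0, 1.07 ± 0.0509 on day 8 and 1.49 ± 0.206 in Het cells. The beta genes had 0.267 ± 0.102, 0.743 ± 0.0989 and 0.822 ± 0.0559. The gamma A-type had 0.543 ± 0.0428, 1.31 ± 0.0571 and 1.34 ± 0.0673, the gamma B-type 0.502 ± 0.0151, 1.00 ± 0.117 and 1.25 ± 0.205, and the C-type 0.504 ± 0.157, 1.23 ± 0.258 and 1.24 ± 0.290. The beta genes were lowest of the 5 types in all 3 groups, but their values are for whole bodies. In the first 2500 bases, the window used for the other types, they had 0.344 ± 0.107, 0.943 ± 0.109 and 1.03 ± 0.0562. These means were still the lowest, though near that of the gamma B-type on day 8. The day 0 SD of the alpha genes nearly equalled their mean.

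**Figure D4:**
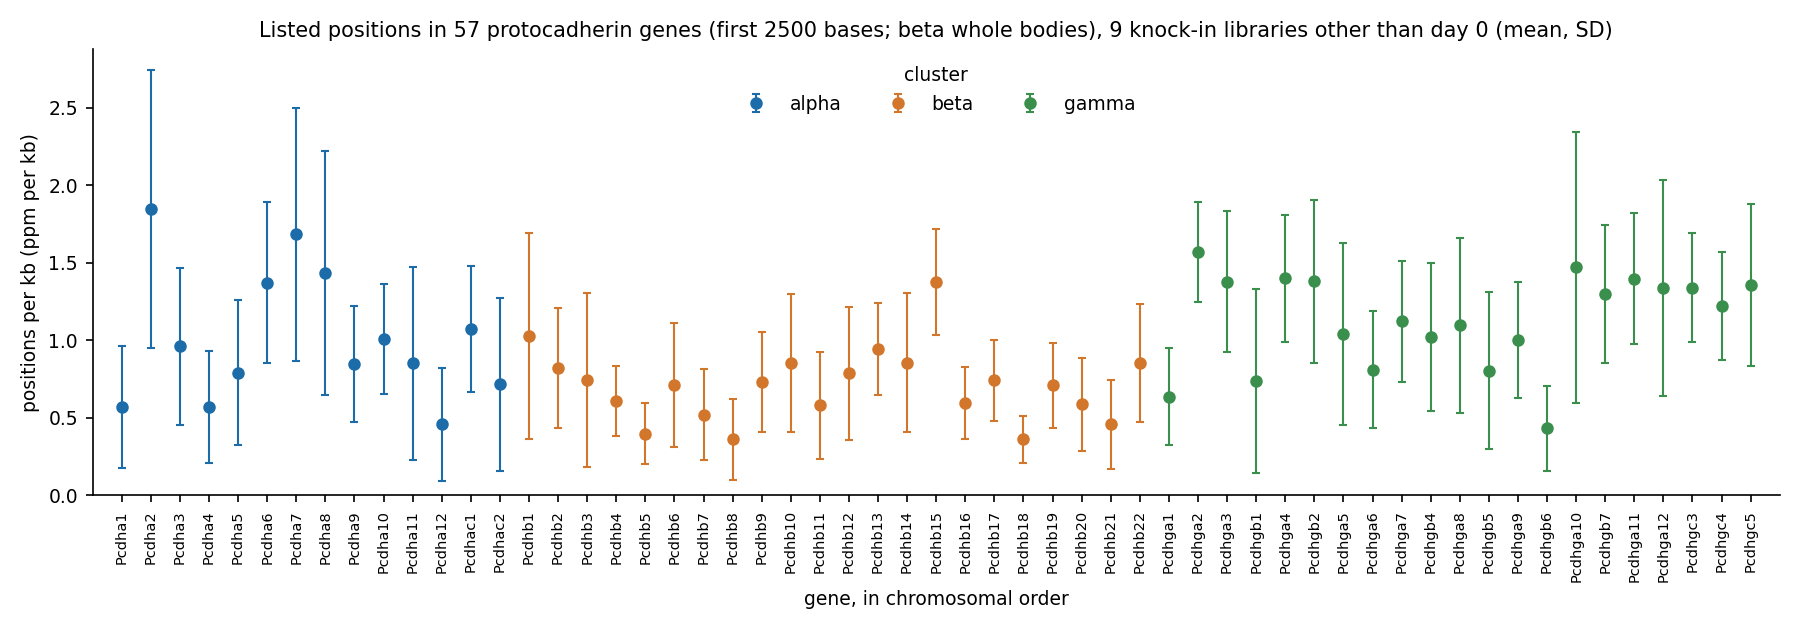
Positions in ppm per kb (vertical axis) for each of the 57 genes in chromosomal order (horizontal axis), in the first 2500 bases of alpha and gamma genes and in the whole body of beta genes. Points are means over the 9 knock-in libraries other than day 0 and error bars are SD; values run from 0.360 in Pcdhb8 to 1.85 in Pcdha2 with wide SD bars.

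Ordered by density over the 9 knock-in libraries other than day 0, the members ran from 0.360 ± 0.259 ppm per kb in Pcdhb8 to 1.85 ± 0.898 in Pcdha2, with a median of 0.854. Neighbours in that order lay close, as sorting makes them, and 0 of 56 neighbouring pairs differed by more than the larger SD of the pair. Pcdha7 (1.68 ± 0.817) and Pcdhga2 (1.57 ± 0.321) followed Pcdha2, and Pcdhb18 (0.362) and Pcdhb5 (0.398 ± 0.197) preceded Pcdhb8. The beta genes, taken as whole bodies, ranged from 0.360 to 1.38, the alpha genes from 0.457 to 1.85 and the gamma genes from 0.432 to 1.57.

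Few single positions came up again and again. From the first alpha start to the last gamma end, 4650 different positions were listed in at least 1 knock-in library, 1274 of them in the alpha, 1099 in the beta and 1495 in the gamma cluster. Of the 4650, 58.5% were listed in 1 library and 27.2% in 2, and 9 were listed in 6 or more of the 11 libraries. Of these 9, 5 lay in the gamma shared 3′ part, at bases 37833352, 37836864, 37837582, 37838016 and 37838957, 1 in the window of Pcdhga12 at 37767661, and 3 between the clusters. The position at 37838957 was listed in 7 libraries, more than any other. In the gamma shared 3′ part 12 of 115 positions (10.4%) were listed in 4 or more libraries, against 190 of 4650 (4.09%) in the whole stretch, although its mean density was below that of the variable exons. Position 37837582 was listed in all 3 Het libraries and in no library of day 0 or day 2, and 37838957 in day 0 replicate 1 and both libraries of day 2.

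Wild-type cells gave few positions anywhere. The 3 clusters held 7 of the 10446 positions of the 3 wild-type libraries, or 670 ppm with an exact 95% binomial (Clopper-Pearson) interval of 269 to 1380, and 3 of the 12651 positions of the 2 wild-type controls, or 237 ppm (48.9 to 693). In knock-in cells the 3 clusters together held 144 of 797285 positions on day 0, or 181 ppm (152 to 213), and the share was 210 ppm for day 2, 276 for day 4, 293 for day 8 and 329 for Het cells. The interval of the wild-type libraries lay above the day 0 and day 2 shares and that of the controls held the shares of all 5 knock-in groups, while the counts were 7 and 3 against 144 to 2534. Of the 57 units, 6 had any position in a wild-type library.

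Genes around and related to the clusters were set beside them, with 4.82% of all rows called in either direction between day 8 and day 0 and 18.3% at an unadjusted p under 0.05. Of 23 regulators of the clusters, among them Ctcf, the cohesin genes, Smchd1 and the Dnmt and Tet genes, edgeR called 0, with 3 at an unadjusted p under 0.05, and their median log2 change was 0.15 against 0.04 over all rows. Of 18 signalling partners 1 rose, and 6 had an unadjusted p under 0.05. Pxn, which encodes the focal adhesion protein paxillin, had 18 and 16 positions on day 0, 76 and 101 on day 2, 171 and 215 on day 4, and 256 and 185 on day 8. Its log2 change was 0.80 ± 0.23 (edgeR adjusted p = 0.0214), and the median of the partners was -0.05. The Pxn call was lost without day 0 replicate 1 (0.95) or 2 (0.73) or day 8 replicate 1 (0.70), on reads (0.47) and with DESeq2 (0.79, adjusted p = 0.0688).

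Of 12 non-clustered protocadherins 10 were tested and 2 rose, 7 had an unadjusted p under 0.05, and the median log2 change over the 10 was 0.70. Pcdh9, a delta protocadherin on chromosome 14, had 31 and 33 positions on day 0, 155 and 175 on day 2, 304 and 347 on day 4, and 412 and 404 on day 8 (log2 change 0.78 ± 0.17, edgeR adjusted p = 0.00079). Pcdh15, a protein of the hair cell tip link on chromosome 10, had 95 and 99, 425 and 443, 665 and 867, and 1029 and 962 (0.47 ± 0.11, adjusted p = 0.00112). The Pcdh9 call was lost without day 0 replicate 1 (0.80, adjusted p = 0.0549) or 2 (0.84, adjusted p = 0.0574), and that of Pcdh15 without replicate 2 (0.51, adjusted p = 0.0510). The other 8 did not pass. Their log2 changes were 1.90 ± 0.65 (Pcdh19), 1.35 ± 0.50 (Pcdh17), 1.29 ± 0.73 (Pcdh10), 0.92 ± 0.38 (Pcdh11x), 0.62 ± 0.21 (Pcdh7, edgeR adjusted p = 0.0599), -0.35 ± 0.39 (Pcdh12), -0.53 ± 0.28 (Pcdh1) and -1.16 ± 0.44 (Pcdh18). Of the 6 genes nearest the clusters, Hars2, Diaph1 and Hdac3 were tested and 0 were called, 0 also at an unadjusted p under 0.05. Their log2 changes were 0.02 ± 0.81, 0.40 ± 0.28 and -0.22 ± 0.46, and their difference from the clusters was not tested.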

How the data were processed

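The authors deposited 1 table per library with the count of reads at each listed position (its coverage, per the file headers), at least 1 read per listed position and not normalized. Per the submitters' processing notes, cutadapt 4.4, BWA 0.7.17-r1188 and SAMtools 1.12 were used with build mm10. Filters on reads or duplicates were not given in the sources used here.

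Distinct positions were counted per unit, each once per unit, since reads at 1 position may be PCR copies. Cluster genes were replaced by their units in a table of 34621 rows (protein-coding and lncRNA bodies), with readthrough genes kept as rows. Library size was the number of positions listed. edgeR 4.0.16 (R 4.3.3) was used with filterByExpr, TMM and the quasi-likelihood test over the 8 day libraries, with Benjamini-Hochberg adjustment at 0.05. Each SE is the ratio of the log2 change to the root of edgeR's F. Trends used exact two-sided permutation of correlations (Python 3.11.15, scipy 1.17.1), and ratios a pseudocount of 0.5. For rho over 8 libraries the smallest p these can give is 0.000794. For Pearson's r a p of 0.000397 was reached, by the alpha variable exons on reads. Over 6 libraries the smallest is 0.0222. Common biological coefficients of variation were 0.00988 (positions) and 0.489 (reads). Counts were also simulated over the 20387 filtered rows, which hold none of the 57 variable units. Between day 8 and day 0, 100 rows were changed 2-fold and 100 rows 4-fold. These were drawn only from rows at or above the median abundance, so the rates do not cover rarer rows. Of them edgeR called 45% and 87%, and it called 5 unchanged rows. The simulated spread was the one fitted to these libraries, and unchanged rows had equal means on all days. The 5 therefore do not measure the false calls in the real data. Replicate numbers did not pair libraries.

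Alternatives were reads, library totals without TMM, no filter, 11 libraries, the replicate number as a block, at least 2 reads per position, windows of 5000 bases, equal reads, only the 4 libraries compared, DESeq2 1.42.0 and leaving out each library. Named genes were the clusters and their parts, per cluster the 3 units with most and 3 with fewest positions, the C-type genes, units called, neighbours of the clusters and called members of 3 lists. The members and lists were chosen with earlier results of these data known. Ratios to other gene starts and of beta to alpha were added after the data had been seen. Promoter strand and start for other genes came from RefSeq.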

Additional observations from a re-analysis of the deposited data

How the results depend on the processing

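Depth limits these results, since single members held 0 to 5 positions over both day 0 libraries. The calls of the beta cluster between day 8 and day 0 and between day 4 and day 0 held under each of the 10 settings that kept all libraries of the comparison, and those of the gamma cluster and its variable exons under all of these but reads. On reads, log2 changes were 0.69 (gamma) and 1.17 (gamma variable exons) on day 8 and 0.70 and 1.13 on day 4, none past the threshold, and 2.23 for the alpha variable exons on day 8, which passed, as it did with at least 2 reads per position (1.34). Between day 8 and day 2, beta, gamma and alpha variable exons were no longer called on reads (0.55, 0.29 and 1.28), after thinning (0.62, 0.45 and 0.76) and with DESeq2 (0.59, 0.45 and 0.92), beta and gamma with at least 2 reads (0.54 and 0.42), and the alpha variable exons with 5000-base windows (0.68). Without the 2 day 8 libraries the correlation with the day was 0.975 for beta, 0.993 for gamma and 0.954 for the gamma variable exons. Each had the smallest exact p that the remaining libraries can give, and none passed after adjustment. The correlation turned in sign for the alpha cluster (-0.0284) and its shared 3′ part (0.127). For the alpha variable exons it passed on reads (0.982) and with at least 2 reads (0.868), as did the ratio of alpha variable to shared positions (0.957 and 0.854). The cause was not tested.

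Leaving out 1 library gave these ranges of the log2 change between day 8 and day 0: alpha -0.24 to 0.50, beta 1.21 to 1.56, gamma 0.83 to 0.86, alpha variable 0.17 to 2.91, alpha shared -0.42 to 0.30, gamma variable 1.09 to 1.46 and gamma shared -0.25 to 7.39, the last with no position in the remaining day 0 library. Between day 4 and day 0 they were 1.21 to 1.38 (beta), 0.76 to 0.80 (gamma) and 0.95 to 1.32 (gamma variable), between day 2 and day 0 0.63 to 0.99 (beta) and 0.38 to 0.43 (gamma), and between day 8 and day 2 0.40 to 0.77 (beta), 0.42 to 0.47 (gamma) and 0.85 to 0.96 (alpha variable). The correlation with the day ranged from 0.0962 to 0.910 (alpha), 0.827 to 0.944 (beta), 0.876 to 0.938 (gamma), 0.622 to 0.962 (alpha variable), -0.579 to 0.0477 (alpha shared), 0.828 to 0.929 (gamma variable) and 0.0752 to 0.730 (gamma shared). That of the ratios ranged from 0.559 to 0.693 (gamma to alpha), -0.863 to -0.563 (gamma to beta), 0.636 to 0.813 (beta to alpha), 0.670 to 0.901 (alpha variable to shared) and -0.474 to 0.566 (gamma variable to shared). Among the 59 single variable units and shared 3′ parts, the number called stayed at 0 under every setting. Most of them were tested only on reads (58 units) and with no filter (59 units). The filter left 2 in the main fit and at most 18 in the other settings, and units that it removed could not be called.

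Over the whole table, 983 rows were called between day 8 and day 0. DESeq2 called 472, the fit of the 4 libraries alone 422, and edgeR 268 and 178 without day 0 replicate 1 or 2. With library totals in place of TMM, 551 were higher and 413 lower, against 442 and 541. Between day 4 and day 0, 869 were called, with 438 by DESeq2, 260 and 178 without a day 0 library and 532 without day 4 replicate 2. Between day 8 and day 2, 30 were called, with 1 on reads, 1 by DESeq2, 16 with at least 2 reads, 18 after thinning and 2 to 17 without 1 library of day 2 or day 4, or day 8 replicate 2. Libraries with the same replicate number did not deviate together (r from -0.0128 to 0.0237 over 12063 rows). With the replicate number as a block, 957 rows were called between day 8 and day 0, the beta cluster changed by 1.37 and the gamma cluster by 0.82, and no call of a cluster or part changed. The calls of Pxn, Pcdh9 and Pcdh15 kept their direction under every setting; that of Pxn was also lost in the fit of the 4 libraries alone (0.81). DESeq2 gave no adjusted p for the shared 3′ parts in the comparisons with day 0. Between day 8 and day 2 the smallest DESeq2 adjusted p for them was 0.9997.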
